A study of Mus musculus with 8 samples.

Results

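Macrophages are phagocytes that settle in most solid tumors. They depend on signaling through Csf1r, the receptor for the growth factors Csf1 and Il34, and they secrete complement C1q, clear dying cells and lipids, and can break down the arginine that T cells need. The 10 genes followed here are commonly used to mark these cells in mouse tumors, and they were taken by name: Csf1r, the 3 chains of complement C1q (C1qa, C1qb and C1qc), the lipid carrier gene Apoe, the lipid receptor gene Trem2, the surface proteins Mrc1, Ms4a7 and Adgre1, and the arginine-degrading enzyme gene Arg1. These 10 genes and the gene lists used below were chosen with earlier results of these data known. Their counts, where set beside the share of all genes, carry that choice. All 10 were found among the 55487 genes of the files, and all 10 were among the 13032 genes tested, those with at least 1 FPKM in at least 4 libraries. FPKM counts fragments relative to transcript length and to the size of the library, so it allows levels of different genes to be compared.

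The libraries came from tumors of B16F10 melanoma, a mouse line that makes pigment, grown under the skin of C57BL/6 mice. The tacrolimus group (4 mice) received tacrolimus (FK506), an inhibitor of the phosphatase calcineurin, by intraperitoneal injection at 3 mg/kg every 5 days, and the vehicle group (4 mice) received vehicle on the same schedule. Dosing began 7 to 9 days after tumor cell injection, when tumors measured about 50 mm3, and harvest followed 6 days after the onset of dosing. The RNA is labelled as that of CD8+ tumor-infiltrating lymphocytes sorted by flow cytometry. Each library was taken as that of 1 mouse, which the sample titles do not state. The sex and age of the mice are not given in the sources used here.

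The steps between low values gave an estimated 15600000 to 19100000 fragments per library. Against the label, melanoma transcripts outweighed those of leukocytes in every library. The 11 melanoma markers summed to between 22260 and 27312 FPKM in the tacrolimus libraries and between 18705 and 33964 FPKM in the vehicle libraries. Cd8a, the chain that names the sorted cells, was at 3.40 to 33.2 FPKM with tacrolimus and at 36.9 to 153 FPKM with vehicle. The 15 T cell markers summed to between 67.8 and 525 FPKM with tacrolimus and between 522 and 2493 FPKM with vehicle. The 9 macrophage genes other than Apoe summed to between 106 and 237 FPKM with tacrolimus and between 192 and 651 FPKM with vehicle. Vehicle replicate 1 had the highest T cell level and tacrolimus replicate 2 the lowest. In RNA of such mixed cells, fewer macrophages and less RNA of a gene per macrophage cannot be told apart.

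The 3 C1q genes are neighbors on chromosome 4, and the other members lie apart. RefSeq windows of the 250 bases upstream of a start site (build GRCm38.p6) were found for 6 of the 10 members. The windows of 4 are shown, 3 from members whose levels varied together over the libraries and that of Apoe, whose level varied less closely with them over all 8. They are printed 5′ to 3′ on the strand of the gene, for C1qb (chr4:136886201-136886450, minus strand), Trem2 (chr17:48346151-48346400, plus strand), Ms4a7 (chr19:11336147-11336396, minus strand) and Apoe (chr7:19699189-19699438, minus strand). Capitals mark matches on either strand to GAGGAA, a core bound by the myeloid factor PU.1, to TGANTCA, the site of AP-1 factors, or to CACGTG, the E-box of the MITF and TFE factors.
C1qb: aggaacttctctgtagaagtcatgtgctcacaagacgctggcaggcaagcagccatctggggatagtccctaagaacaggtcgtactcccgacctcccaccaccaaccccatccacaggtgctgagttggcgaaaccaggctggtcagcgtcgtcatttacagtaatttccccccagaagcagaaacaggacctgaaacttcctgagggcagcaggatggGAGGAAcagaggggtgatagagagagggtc
Trem2: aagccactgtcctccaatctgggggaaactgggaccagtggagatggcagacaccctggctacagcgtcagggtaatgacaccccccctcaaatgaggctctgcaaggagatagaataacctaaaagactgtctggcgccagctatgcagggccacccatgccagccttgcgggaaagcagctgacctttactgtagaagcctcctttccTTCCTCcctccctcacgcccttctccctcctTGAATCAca
Ms4a7: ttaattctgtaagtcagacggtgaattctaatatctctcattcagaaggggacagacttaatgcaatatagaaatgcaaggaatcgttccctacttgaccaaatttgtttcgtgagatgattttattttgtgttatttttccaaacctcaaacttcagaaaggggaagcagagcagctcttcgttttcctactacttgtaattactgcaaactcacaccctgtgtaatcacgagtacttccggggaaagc
Apoe: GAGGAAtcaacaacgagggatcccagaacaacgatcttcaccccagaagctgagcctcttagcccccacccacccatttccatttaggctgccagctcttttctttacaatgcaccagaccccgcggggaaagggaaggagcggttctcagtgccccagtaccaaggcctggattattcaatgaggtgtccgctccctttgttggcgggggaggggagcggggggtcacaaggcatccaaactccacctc
The PU.1 core stood once each in the windows of C1qb, Trem2 and Apoe and not in that of Ms4a7. It was also found in 23.3% of all 32851 upstream windows of the same length. A match to TGANTCA, with A as its middle base, stood next to the start of Trem2. Such matches, with any middle base, were found in 6.75% of all windows. The E-box was in none of these 4 windows and in 6.02% of all windows. No motif overlapped another in the 4 windows. The windows of C1qc, with 1 PU.1 core, and of Mrc1, with 3, are not shown because they reach into the gene itself. Apoe and Ms4a7 also had windows at further start sites, not shown. Among those, start site 3 of Apoe had 1 PU.1 core and start site 2 had none, and start site 2 of Ms4a7 had 1 match to TGANTCA.

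The first comparison asked whether the macrophage genes differed between tacrolimus and vehicle mice. All 10 had a lower mean in the tacrolimus libraries, as did 75.7% of all genes tested, with a median difference of -1.05 over the 10 members against -0.19 over all genes on the log2(FPKM + 1) scale. None passed an adjusted p of 0.05 in limma, a linear model fitted over all genes tested, and neither did any other gene (0.0% of those tested). Members other than Apoe varied closely together over the libraries (median r of their pairs 0.891), so counts over the members are not counts of separate observations. At an unadjusted p under 0.05, 7 of the 10 members were lower, where 15.8% of all genes were. That count was 4 under median-of-ratios and under upper-quartile scaling, 5 with no filter on low values, and 5 to 10 with 1 library left out, the 10 being without vehicle replicate 3. The groups did not overlap for 1 member, Apoe, where all tacrolimus libraries lay below all vehicle libraries for 10.2% of all genes. The median gene was at -0.19 as deposited, at -0.00126 with median-of-ratios scaling and at 0.03 with upper-quartile scaling, and the 10 members still had lower tacrolimus means under both, with differences of -1.10 to -0.11 and -1.07 to -0.07. Unadjusted calls over all genes were 2056 lower and 208 higher as deposited, but 801 lower and 675 higher after median-of-ratios scaling and 691 lower and 741 higher after upper-quartile scaling. Each difference given for a gene is the tacrolimus mean less the vehicle mean of log2(FPKM + 1), with its limma standard error, and it understates the change of genes of low level.

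**Figure D1:**
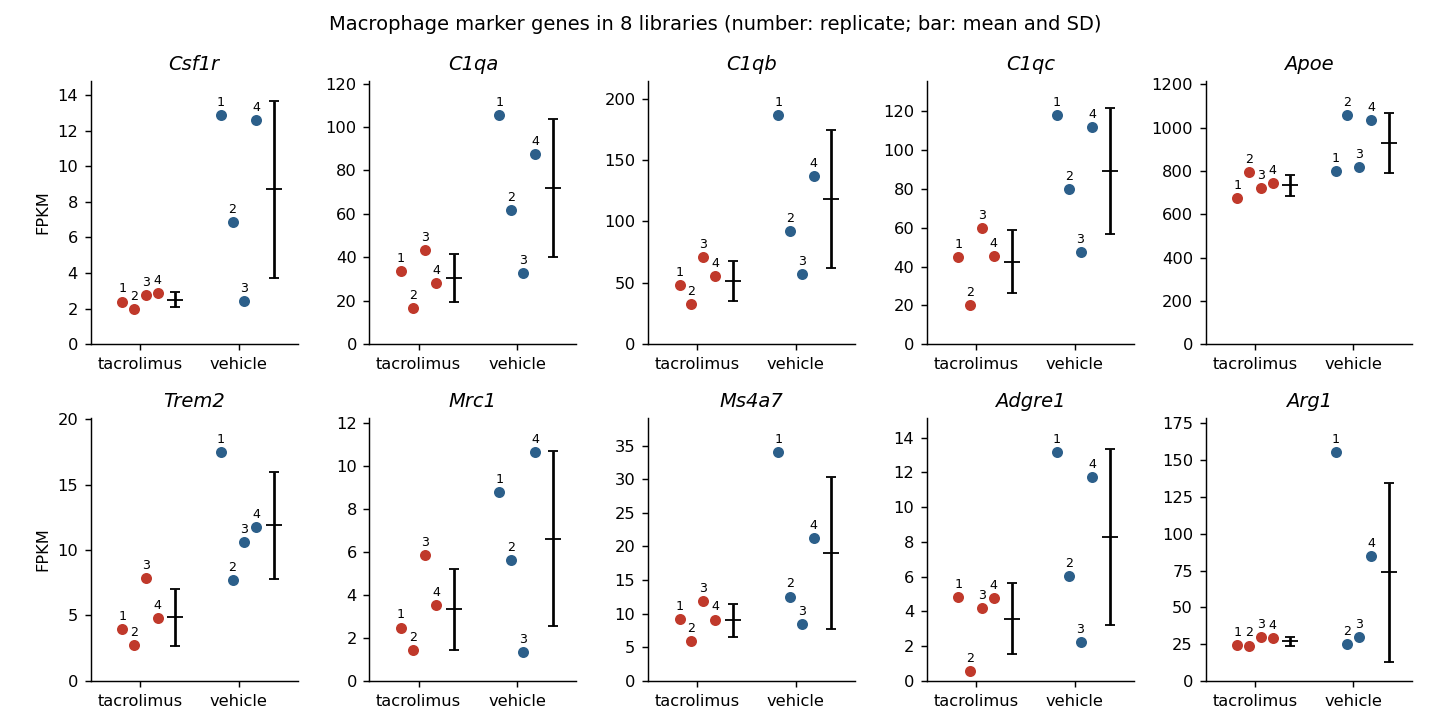
FPKM of each of the 10 macrophage genes in the 4 tacrolimus and 4 vehicle libraries, with the replicate number beside each point and the mean and SD beside each group. Vehicle replicates 1 and 4 are above every tacrolimus library in each panel, while vehicle replicate 3 is within the tacrolimus range in 7 panels.

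Csf1r (ENSMUSG00000024621) is the receptor tyrosine kinase on which macrophage survival depends. It was at 2.40, 1.97, 2.77 and 2.87 FPKM in tacrolimus replicates 1 to 4, against 12.9, 6.88, 2.45 and 12.6 FPKM in vehicle replicates 1 to 4. The tacrolimus values lay close together, and 3 of the 4 vehicle libraries lay above all of them, while vehicle replicate 3 fell among them. The means were 2.50 ± 0.41 FPKM with tacrolimus and 8.70 ± 4.99 FPKM with vehicle (SD, n = 4 each, as for all means ± SD given here), a difference of -1.28 (SE 0.40, limma adjusted p = 0.200). A single fragment of the longest Csf1r transcript corresponds to about 0.0111 to 0.0136 FPKM, so the lowest value rests on many fragments.

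Of the 2 ligands of this receptor, Csf1 was at 2.28 ± 0.66 FPKM in the tacrolimus libraries and 4.64 ± 1.58 FPKM in the vehicle libraries (limma adjusted p = 0.206). The highest tacrolimus library, at 3.05 FPKM, was below the lowest vehicle library, at 3.28 FPKM, as was found for 10.2% of all genes. Il34 did not separate the groups, at 0.21, 0.15, 4.26 and 5.16 FPKM with tacrolimus and 0.57, 0, 2.53 and 3.96 FPKM with vehicle. Replicates 3 and 4 were high in both groups for Il34. Csf2, which encodes the related growth factor GM-CSF, averaged 0.71 ± 0.63 and 2.43 ± 1.70 FPKM in the tacrolimus and vehicle groups.

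C1qa, C1qb and C1qc encode the chains of C1q, which opens the classical complement pathway and tags dying cells for uptake. C1qa (ENSMUSG00000036887; GRCm38 chromosome 4, 136895917 to 136898803, minus strand) was at 33.7, 16.8, 43.6 and 28.2 FPKM with tacrolimus, against 105, 61.9, 32.7 and 87.4 FPKM with vehicle. C1qb (ENSMUSG00000036905; 136880129 to 136886187) was at 47.8, 32.4, 71.1 and 55.2 FPKM with tacrolimus, against 186, 92.2, 57.0 and 137 FPKM with vehicle. C1qc (ENSMUSG00000036896; 136889804 to 136893065) was at 44.7, 20.3, 59.7 and 45.5 FPKM with tacrolimus, against 118, 79.7, 47.4 and 112 FPKM with vehicle. Each chain was highest in vehicle replicate 1 and lowest in tacrolimus replicate 2, and in each the groups overlapped only through vehicle replicate 3. The differences were -1.16 (SE 0.37, limma adjusted p = 0.202) for C1qa, -1.10 (SE 0.35, adjusted p = 0.201) for C1qb and -1.06 (SE 0.36, adjusted p = 0.209) for C1qc. A two-sided exact permutation test, with 70 ways to assign the libraries, gave p = 0.0857 for C1qa and 0.0571 for both other chains, where 0.0286 is the smallest p it can give.

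The chains kept nearly fixed proportions. C1qa ran from 0.511 to 0.705 times the level of C1qb and from 0.620 to 0.894 times that of C1qc over the 8 libraries, per kilobase. The other genes within 100 kb of the C1q genes were far lower: Ephb2 and Zbtb40 had at most 0.45 and 1.13 FPKM, and Epha8 was listed at 0 in every library. Of 16 complement genes outside C1q, 15 were tested and none passed adjustment. All 15 had a lower mean in the tacrolimus libraries, where 75.7% of all genes tested did. C2, a protease of the classical pathway, was at 57.1 ± 8.02 FPKM with tacrolimus and 93.1 ± 23.5 FPKM with vehicle, without overlap. All tacrolimus libraries lay below all vehicle libraries for 1 of the 15, where they did for 10.2% of all genes. C5ar1, the receptor for the complement fragment C5a, averaged 7.39 ± 2.40 and 21.3 ± 13.1 FPKM in tacrolimus and vehicle libraries.

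Apoe (ENSMUSG00000002985; chromosome 7, 19696109 to 19699188, minus strand) encodes apolipoprotein E, which carries lipid out of macrophages and is made by several other cell types too. It was the most abundant member in every library, at 676, 793, 720 and 746 FPKM with tacrolimus, against 800, 1057, 816 and 1037 FPKM with vehicle. All 4 tacrolimus libraries lay below all 4 vehicle libraries, but tacrolimus replicate 2 and vehicle replicate 1 were nearly equal. The difference was -0.33 (SE 0.14, limma adjusted p = 0.272), the smallest of the 10, and the exact permutation test gave p = 0.0286, the smallest possible, with an adjusted p of 0.260 over all genes. The group gap shrank to -0.11 after median-of-ratios scaling and -0.07 after upper-quartile scaling. Of 18 other lipid handling genes, 16 were tested and none passed adjustment. Of these 16, 11 had a lower mean with tacrolimus, where 75.7% of all genes tested did. Plin2, which coats lipid droplets, averaged 70.3 ± 10.6 FPKM with tacrolimus and 114 ± 39.7 FPKM with vehicle. Fabp4 went the other way, at 53.3 ± 24.0 FPKM with tacrolimus and 32.5 ± 16.2 FPKM with vehicle, a difference of 0.71. Nr1h3 and Fabp5 also had higher means with tacrolimus, with differences of 0.19 and 0.03.

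Trem2 (ENSMUSG00000023992; chromosome 17, 48346401 to 48354147, plus strand) binds lipids and lipoproteins, Apoe among them, and signals through the adaptor Tyrobp. It was at 4.00, 2.77, 7.85 and 4.81 FPKM with tacrolimus, against 17.5, 7.72, 10.6 and 11.8 FPKM with vehicle. The groups overlapped only by tacrolimus replicate 3, which exceeded vehicle replicate 2 by little. With a difference of -1.16 (SE 0.30, limma adjusted p = 0.187) it had the smallest p of the members, and it was the only member to pass in any of the fits of this comparison that were run. That happened with the melanoma marker level as a covariate, where the difference was -1.40 (limma adjusted p = 0.0459), a fit in which 1.88% of all genes were called lower. Tyrobp averaged 70.3 ± 26.4 FPKM with tacrolimus and 171 ± 141 FPKM with vehicle, and its vehicle level ran from 84.9 to 380 FPKM.

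The list of TREM2 signaling and associated genes had 14 of 15 members tested, and none passed the adjustment. All 14 had a lower mean in the tacrolimus libraries, where 75.7% of all genes tested did. The median difference over the 14 was -0.70. All tacrolimus libraries lay below all vehicle libraries for 4 of the 14, on the values as deposited, where they did for 10.2% of all genes. Spp1, which encodes osteopontin, was at 242 ± 15.8 FPKM with tacrolimus and 474 ± 151 FPKM with vehicle. The lysosomal proteases Ctsb, at 355 ± 42.4 and 545 ± 109 FPKM in tacrolimus and vehicle libraries, and Ctsd, at 739 ± 45.4 and 1014 ± 115 FPKM, also did not overlap. Melanoma cells can express several genes of this list, and their part in these levels was not tested.

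Mrc1, Ms4a7 and Adgre1 encode surface proteins. Mrc1 (ENSMUSG00000026712; chromosome 2, 14229392 to 14332057), the mannose receptor CD206, was at 2.48, 1.42, 5.85 and 3.54 FPKM with tacrolimus, against 8.79, 5.63, 1.36 and 10.6 FPKM with vehicle. Its lowest value of all was in vehicle replicate 3, so that no tacrolimus library was below the vehicle range, and its difference of -0.69 (SE 0.49, limma adjusted p = 0.466) had the largest p of the members. That difference was -1.18 without vehicle replicate 3, -0.41 without vehicle replicate 4 and -0.45 without tacrolimus replicate 2. Ms4a7 (ENSMUSG00000024672; chromosome 19, 11321039 to 11336146), a tetraspan membrane protein, was at 9.18, 5.89, 11.9 and 9.13 FPKM with tacrolimus, against 34.0, 12.6, 8.39 and 21.2 FPKM with vehicle, a difference of -0.86 (SE 0.37, limma adjusted p = 0.276), or -0.53 without vehicle replicate 1. Adgre1 (ENSMUSG00000004730; chromosome 17, 57358691 to 57483527) encodes the F4/80 antigen, and it was at 4.83, 0.56, 4.17 and 4.78 FPKM with tacrolimus, against 13.2, 6.01, 2.25 and 11.7 FPKM with vehicle. Tacrolimus replicate 2 was far below the other 3, which lay within the vehicle range, and the difference was -0.98 (SE 0.54, adjusted p = 0.361). Without tacrolimus replicate 2 the tacrolimus mean of Adgre1 was 4.59 FPKM, and the difference was -0.52.

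Of the other 13 genes of the Ms4a family, 6 were tested and 3 were listed at 0 in every library. All 6 had a lower mean with tacrolimus, where 75.7% of all genes tested did, and none of the 6 passed adjustment. Ms4a6b was at 7.52 ± 4.65 FPKM with tacrolimus and 29.8 ± 22.3 FPKM with vehicle. Ms4a4b, which T cells express, was at 53.1 ± 32.8 FPKM with tacrolimus and 203 ± 169 FPKM with vehicle.

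Arg1 (ENSMUSG00000019987; chromosome 10, 24915221 to 24927484, minus strand) encodes arginase 1. It was at 24.4, 24.1, 29.9 and 29.3 FPKM with tacrolimus, against 156, 24.8, 29.8 and 85.1 FPKM with vehicle. Vehicle replicates 1 and 4 stood far above the other 6 libraries, which all lay between 24.1 and 29.9 FPKM. The difference was -1.04 (SE 0.49, limma adjusted p = 0.303). It was -0.56 without vehicle replicate 1, and the vehicle mean of 73.8 ± 61.0 FPKM (SD, n = 4) became 46.6 FPKM without that library and 27.3 FPKM without vehicle replicates 1 and 4, against 26.9 ± 3.13 FPKM with tacrolimus. Of 15 other genes of alternative activation and arginine use, 12 were tested and none passed the adjustment. All 12 had a lower mean with tacrolimus, where 75.7% of all genes tested did. Ass1, which rebuilds arginine from citrulline, was at 4.43 ± 0.55 FPKM with tacrolimus and 6.92 ± 1.35 FPKM with vehicle, without overlap. Tgm2, at 1.46 ± 0.22 FPKM with tacrolimus and 7.16 ± 8.26 FPKM with vehicle, also did not overlap, and vehicle replicate 1 alone had 19.5 FPKM. All tacrolimus libraries lay below all vehicle libraries for 3 of the 12, where they did for 10.2% of all genes.

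Among other macrophage genes, 16 of 20 were tested and none passed adjustment. Of these 16, 14 had a lower mean with tacrolimus, where 75.7% of all genes tested did. The lysosomal marker Cd68 was at 60.5 ± 19.0 FPKM with tacrolimus and 123 ± 54.4 FPKM with vehicle. Siglec1, a sialic acid receptor of macrophages, was at 0.78 ± 0.15 and 2.66 ± 1.29 FPKM in tacrolimus and vehicle libraries, without overlap. All tacrolimus libraries lay below all vehicle libraries for 1 of the 16, where they did for 10.2% of all genes. Spi1, which encodes PU.1, was at 4.17 ± 1.54 FPKM with tacrolimus and 8.83 ± 5.89 FPKM with vehicle, and the groups overlapped. Markers of other leukocytes had the same direction: 7 of 7 tested monocyte and neutrophil markers, 9 of 10 dendritic cell markers, 15 of 15 T cell markers, 4 of 5 NK cell markers and 2 of 2 B cell markers had a lower mean with tacrolimus. So did 8 of 11 melanoma markers, 5 of 7 fibroblast and endothelial markers and 75.7% of all genes tested. Dendritic cell markers, some of which macrophages share, summed to between 282 and 431 FPKM with tacrolimus and between 378 and 2349 FPKM with vehicle. Monocyte and neutrophil markers summed to between 69.3 and 175 FPKM with tacrolimus and between 114 and 867 FPKM with vehicle, with 2 of the 12 genes listed at 0 in every library, and the part of these cells in the macrophage gene levels was not tested.

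The order of the members by FPKM was nearly the same in all libraries. Apoe was first and C1qb second in each of the 8, and C1qa, C1qc and Arg1 held places 3 to 5 in changing order. Ms4a7 was at place 6 in 7 libraries and at place 7 in vehicle replicate 3. Csf1r, Trem2, Mrc1 and Adgre1 filled the remaining places, and their ranges over the libraries overlapped in both groups. Among all genes of a library Apoe stood between place 82 and place 167, and C1qb between place 688 and place 2948. Csf1r stood between place 6286 and place 11270.

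Over all 8 libraries, 9 of the 10 members varied together, and Apoe varied less closely with them. Among the 36 pairs without Apoe, Pearson's r of the log2 values over 8 libraries had a median of 0.891 and ran from 0.659 to 0.984, and Spearman's rho ran from 0.571 to 1. Among the 9 pairs with Apoe, r had a median of 0.463 and ran from 0.256 to 0.655. Without tacrolimus replicate 2 and vehicle replicate 1 the medians were 0.833 for the pairs without Apoe and 0.698 for those with it, and the 2 kinds of pairs overlapped. In those 6 libraries r ran from 0.177, for Trem2 with Adgre1, to 0.993 for the pairs without Apoe, and from 0.520 to 0.891 for the pairs with Apoe. The highest r were those of C1qa with C1qc and of C1qa with C1qb, and C1qb also stayed between 5.21 and 7.35 times the level of Ms4a7 in every library. By contrast, Apoe was at 24.5 times the level of C1qb in tacrolimus replicate 2 and at 4.29 times in vehicle replicate 1. Both genes of a pair were measured in the same libraries and so share their depth, scaling and mixture of cells, and these values are a description.

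**Figure D2:**
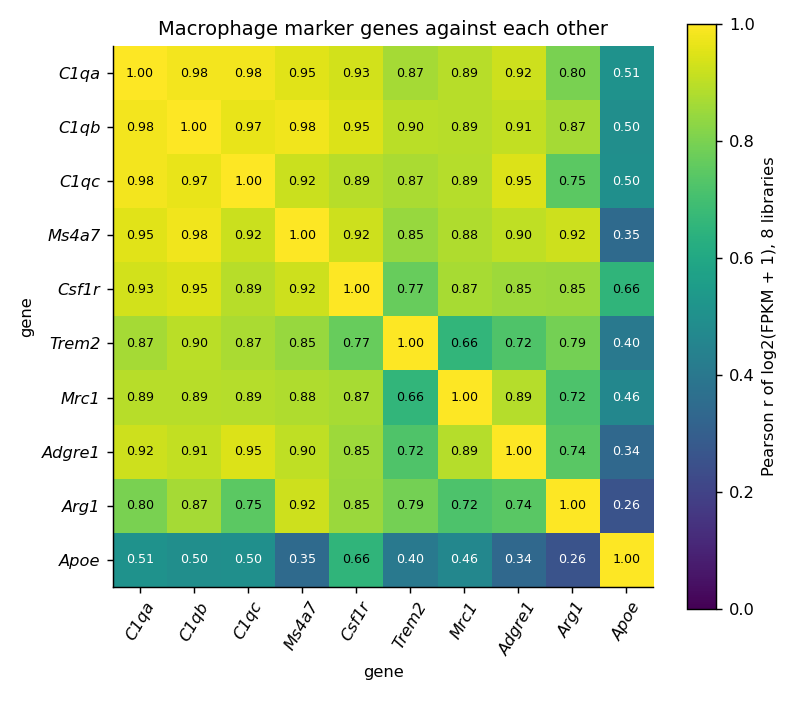
Pearson's r of log2(FPKM + 1) over the 8 libraries for each pair of the 10 macrophage genes, both groups together, with r as the color and as the number in each cell. The block without Apoe runs from 0.659 to 0.984, and the row and column of Apoe from 0.256 to 0.655.

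Genes outside the 10 with the most similar pattern were sought by Pearson's r with the macrophage level, the mean log2 value of the members in a library, over 8 libraries and 11492 genes. The 8 closest were Slc11a1, Dab2, Lyz2, Fcgr3, C5ar1, C3ar1, Gmip and F13a1, with r from 0.975 to 0.987. After the mean of each group was subtracted, their r ran from 0.956 to 0.976, over the same libraries that were used to pick them. Slc11a1, a metal transporter of phagosomes, was at 3.06 ± 1.19 FPKM with tacrolimus and at 19.3, 5.35, 3.70 and 11.8 FPKM with vehicle. Vehicle replicates 1 and 4 were high and vehicle replicate 3 low, a pattern by which Slc11a1 was picked. The likeness was not particular to the 8 genes, since 141 genes had an r above 0.9. Lyz2, a lysozyme gene of myeloid cells, was at 183, 98.7, 225 and 162 FPKM with tacrolimus and 876, 256, 170 and 474 FPKM with vehicle. The T cell gene Cd3e had an r of 0.805 with this level and ranked 687 among the 11492 genes.

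The second comparison asked how the macrophage genes followed Cd3e, which encodes CD3 epsilon of T cells and is not made by macrophages. Cd3e was at 46.1, 6.53, 18.2 and 19.1 FPKM with tacrolimus and 146, 40.8, 61.6 and 74.7 FPKM with vehicle. In the limma fit with Cd3e as the only term, all 10 members had a positive slope (that of Apoe was negative, at -0.0273, after upper-quartile scaling), and 4 passed an adjusted p of 0.05 over all genes: C1qa, C1qb, C1qc and Trem2. In that fit 3.64% of all genes were called with a positive slope. It pooled both groups, and Cd3e and all 10 members had lower means with tacrolimus, so its slopes include the difference between the groups. The slope, in log2(FPKM + 1) per unit of log2(Cd3e FPKM + 1), was 0.53 for C1qa (SE 0.12, limma adjusted p = 0.0274), 0.49 for C1qb (SE 0.12, adjusted p = 0.0420), 0.50 for C1qc (SE 0.11, adjusted p = 0.0274) and 0.48 for Trem2 (SE 0.11, adjusted p = 0.0359). Adgre1 had the steepest slope, 0.60 (SE 0.15, adjusted p = 0.0535). Apoe had the flattest, 0.05 (SE 0.07, adjusted p = 0.917). Over the T cell markers the median slope was 0.98, and all 14 besides Cd3e passed. Over the members the median was 0.49, and the difference between the lists was not tested.

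These 4 calls depended on the processing and on single libraries. The 4 stayed called without tacrolimus replicate 1 or 3, and 1 to 3 of them were called without tacrolimus replicate 4 or vehicle replicate 2, 3 or 4. None of the 4 passed with median-of-ratios scaling (adjusted p = 0.0664 to 0.0955), upper-quartile scaling (adjusted p = 0.0904 to 0.124), no filter on low values, or without tacrolimus replicate 2 or vehicle replicate 1. Their slopes stayed positive in each of those fits.

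**Figure D3:**
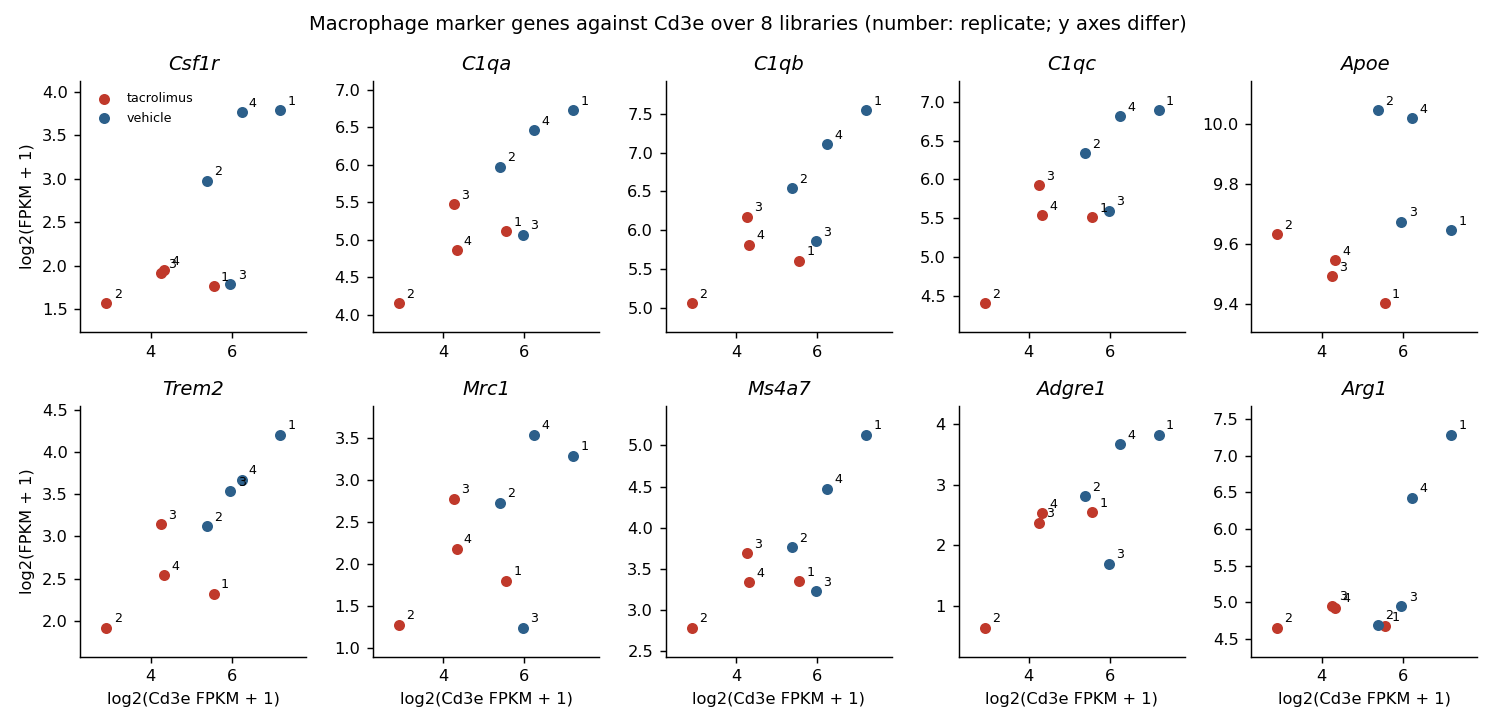
Log2(FPKM + 1) of each macrophage gene against log2(Cd3e FPKM + 1) in the 8 libraries, tacrolimus in red and vehicle in blue, with the replicate number beside each point. Tacrolimus replicate 2 and vehicle replicate 1 are the ends of the Cd3e axis, and vehicle replicate 3 and tacrolimus replicate 1 lie below the other libraries of like Cd3e for Csf1r and the C1q genes.

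By correlation over the 8 libraries, 8 of the 10 members had an unadjusted exact permutation p under 0.05 for Pearson's r with Cd3e, where 9.97% of all genes had one with a positive r. None passed after adjustment over all 13031 genes, and neither did any other gene by Pearson's r (0.0%), while 112 genes did by Spearman's rho, no member among them. The r was 0.842 for Trem2 (rho = 0.786, exact permutation p = 0.00890 and 0.0279, adjusted p = 0.212 and 0.359) and 0.831 for C1qc (rho = 0.690, exact permutation p = 0.0117 and 0.0694, adjusted p = 0.236 and 0.494). For Csf1r it was 0.726 (rho = 0.643, exact permutation p = 0.0375 and 0.0962, adjusted p = 0.391 and 0.544). For Mrc1 it was 0.527 (rho = 0.405, exact permutation p = 0.178 and 0.327, adjusted p = 0.705 and 0.771) and for Apoe 0.294 (rho = 0.405, exact permutation p = 0.473 and 0.327, adjusted p = 0.912 and 0.771). Over the other 5 members r was lowest for Arg1, at 0.718, and highest for C1qa, and rho ran from 0.643 to 0.738. Without tacrolimus replicate 2 and vehicle replicate 1, the libraries farthest from the median of Cd3e, r ran from -0.00317 for Mrc1 to 0.529 for Apoe, and no member had an exact permutation p under 0.05. Over the 8 members with an unadjusted p under 0.05 in all libraries, r was then 0.269 for Adgre1 to 0.510 for Trem2, so their unadjusted calls rest on those 2 libraries, whose removal also narrows the range of Cd3e and leaves 6 points. For Apoe r was higher without them. All these correlations pool both groups and so include the difference between them. Groups of 4 are too small for a correlation within a group.

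Single libraries of like T cell level differed in macrophage level. Vehicle replicate 3 had 61.6 FPKM of Cd3e and 2.45 FPKM of Csf1r, while vehicle replicate 4 had 74.7 and 12.6 FPKM. Tacrolimus replicate 1 had 46.1 FPKM of Cd3e and 33.7 FPKM of C1qa, while vehicle replicate 2 had 40.8 and 61.9 FPKM. C1qb was at 4.96 and 3.92 times the level of Cd3e in tacrolimus replicates 2 and 3, and at 1.04 times in tacrolimus replicate 1 and 0.925 times in vehicle replicate 3. The macrophage and T cell transcripts were thus not in a fixed ratio over the libraries.

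With treatment and Cd3e in the same limma fit, the differences between the groups at equal Cd3e were smaller in size for 9 of the 10 members and larger for Apoe. They ran from -0.76 for Csf1r (SE 0.61, limma adjusted p = 0.486) to 0.46 for Adgre1 (SE 0.62, adjusted p = 0.692). For C1qb the difference was -0.38 (SE 0.47, adjusted p = 0.664), for Trem2 -0.57 (SE 0.41, adjusted p = 0.443) and for Apoe -0.56 (SE 0.21, adjusted p = 0.273). Those of Mrc1, Ms4a7 and Arg1 were under 0.1 in size and turned positive under both other scalings. No gene passed for treatment in this fit (0.0% of all genes). The slopes on Cd3e within groups were positive for 9 members and negative for Apoe, at -0.12 (SE 0.08, adjusted p = 0.515). None of the 10 passed, where 0.729% of all genes did. Adgre1 had the steepest slope within groups, 0.74 (SE 0.25, adjusted p = 0.329). The groups shared little of the range of Cd3e, at 6.53 to 46.1 FPKM with tacrolimus and 40.8 to 146 FPKM with vehicle. Treatment and Cd3e can thus hardly be told apart in this fit. Without tacrolimus replicate 1, the differences at equal Cd3e were positive for 8 of the 10 members, with a median of 0.47.

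**Figure D4:**
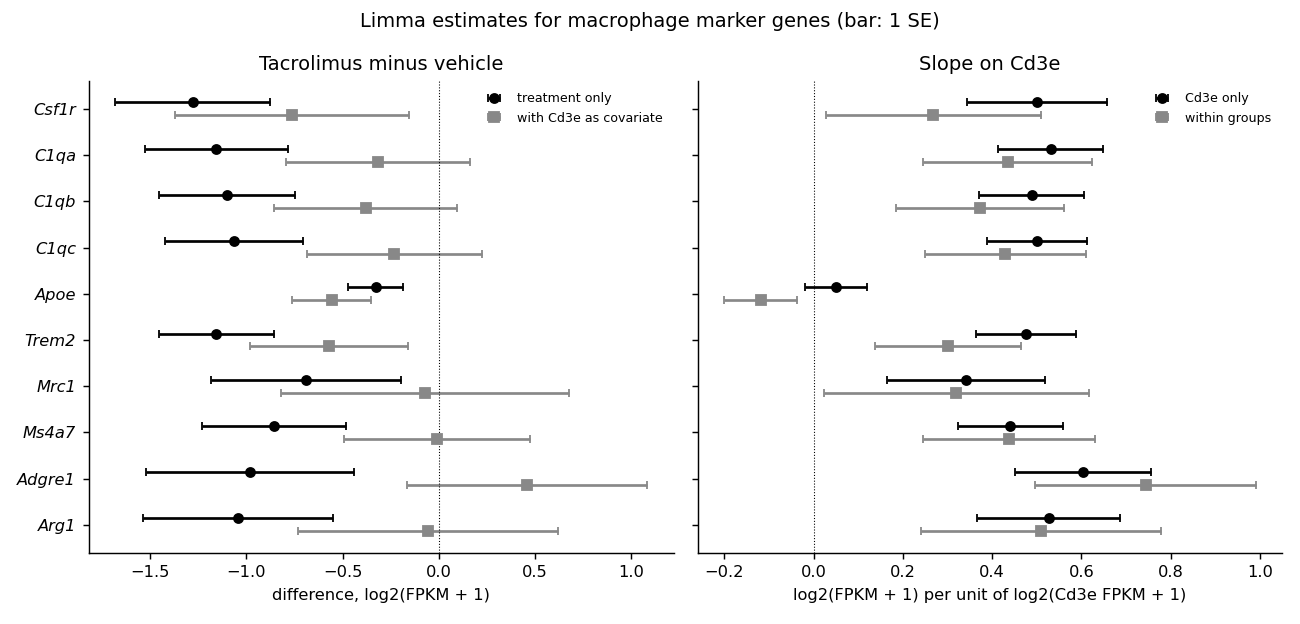
Limma estimates for each macrophage gene with 1 SE on either side. The left panel gives tacrolimus minus vehicle in log2(FPKM + 1), with and without Cd3e as a covariate, and the right panel the slope on Cd3e over all libraries and within groups. The treatment estimates of 9 genes lie nearer 0 with Cd3e in the fit or, for Adgre1, on the other side of it, and the slope of Apoe lies near 0.

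Apoe was set beside the melanoma markers after its values were seen. Its r with the mean log2 level of the 11 melanoma markers was 0.825 over 8 libraries (rho = 0.619, exact permutation p = 0.0131 and 0.115, adjusted over all genes p = 0.102 and 0.367), and 0.882 without vehicle replicates 1 and 4, the libraries farthest from the median of that level (exact permutation p = 0.0153). A positive r with an unadjusted permutation p under 0.05 was found for 23.9% of all genes. The other 9 members had r from -0.148 to 0.239 with the melanoma level over 8 libraries. Without vehicle replicates 1 and 4, r was 0.655 for Csf1r. For the rest it then ran from -0.201 for Arg1 to 0.282 for C1qb. Pmel, a structural protein of melanosomes, was at 4956 ± 736 FPKM with tacrolimus and 6477 ± 1629 FPKM with vehicle. Which cells the Apoe transcripts came from was not tested.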

How the data were processed

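RNA libraries taken as those of 8 mice were analysed, with groups and replicate numbers from the sample titles. Per the submitters' processing notes, HISAT2 2.1.0, RSEM 1.3.1, DESeq2 1.24.0 and the build GRCm38.p6 were named, with no role or order. The deposited values carry no unit in their headers. They were taken as FPKM scaled by the authors for length and library size, because they are not whole, summed to between 890182 and 926808 per library and step with transcript length. For genes with 1 transcript of 500 to 1500 bases, 86.4% to 88.1% of low values lay within 0.15 of a whole number of fragments, where an even spread gives 30%. Depth was estimated from those steps within a set range, since a multiple of the true number of fragments would fit them as well. No count test was run.

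Symbols were matched by Ensembl ID to GENCODE M21, and 346 IDs had none. Log2(FPKM + 1) values of genes with at least 1 FPKM in at least 4 libraries were fitted with limma 3.58.1 (trend) in R 4.3.3, adjusted by Benjamini-Hochberg over all genes tested at 0.05. The terms were treatment, log2(Cd3e + 1), or both. Correlations used all 40320 pairings. The design assumed that counts might be found, and the test it names for FPKM was used. The fits were tested on simulated data. Members and lists were chosen with earlier results of these data known. Named genes are the members, a fixed set, up to 3 genes per list by smallest p, and the 8 most similar genes. The p-values measure the spread between these mice. Nothing in the labels says whether mice shared a cage or a day. At most 1.69% of the genes with a mean of 1 FPKM or more had identical values in 2 libraries, so no library was a copy of another. That check cannot show whether libraries shared a mouse or were pooled, and counting each library as its own sample was an assumption.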

Additional observations from a re-analysis of the deposited data

Results flagged for a closer look

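Adgre1 was at 0.56 FPKM in tacrolimus replicate 2, far below the other 3 tacrolimus libraries, which were at 4.17 to 4.83 FPKM. The gap to the nearest of the others took up most of the range of the group. It was the 1 library that stood apart when the 22 groups of 4 values of the members and Cd3e were examined, and chance marks about 1 in 20 groups. The same library had the lowest Cd3e level, at 6.53 FPKM, and the lowest values of the 3 C1q genes, Csf1r, Trem2, Ms4a7 and Arg1.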

How the results depend on the processing

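All 10 members kept a lower mean with tacrolimus under the alternatives run, and the sole call was that of Trem2 with the melanoma level as a covariate. Over all genes that covariate gave 258 calls, and leaving out 1 library gave 0 to 1, the 1 being Gm37167 without vehicle replicate 1. Calls for the slope on Cd3e numbered 481, but 154 with no filter, 137 without vehicle replicates 1 and 3 (chosen after seeing the data), and 190 to 558 with 1 library left out. Slopes within groups gave 95 calls, but 0 with no filter and 0 to 180 with 1 library left out. Over the members and alternatives, the call of a slope was lost 32 times and gained 10 times, and an unadjusted p under 0.05 for r was lost 26 times and gained 1 time. The upper-quartile scaling turned the slope of Apoe to -0.0273. Adgre1 was not tested where 1 FPKM was asked of all 8 libraries. The causes were not tested.

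Differences at equal Cd3e were unstable in sign. Mrc1 was at 0.0021 with a pseudocount of 0.1, 0.0615 with median-of-ratios and 0.0347 with upper-quartile scaling, where Ms4a7 was at 0.15 and 0.11 and Arg1 at 0.11 and 0.0408. With 1 library left out the ranges were -0.72 to 0.27 for C1qa, -0.75 to 0.53 for C1qb, -0.56 to 0.42 for C1qc, -0.81 to 0.36 for Trem2, -0.70 to 0.98 for Mrc1, -0.38 to 0.85 for Ms4a7, -0.0528 to 1.20 for Adgre1 and -0.71 to 1.28 for Arg1.

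The labels do not say whether libraries with the same replicate number share anything else. Same-numbered deviations from the group means correlated at 0.215, 0.277, -0.020 and -0.022. Tacrolimus replicates 1 and 2 correlated best with the vehicle library of their own number, and tacrolimus replicates 3 and 4 did not. With the replicate block, 121 genes were called for treatment (0.882% of all genes lower) and no member, and 0 genes for slopes within groups. The block gave 1.40 for C1qa, 0.15 for C1qb, 2.02 for C1qc, 0.13 for Apoe and 2.32 for Mrc1 at equal Cd3e, and slopes within groups of 0.24 for Apoe, -0.0243 for Trem2 and -1.81 for Arg1.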

Other observations

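Some genes near or akin to the members had another pattern. Apoc1, a lipoprotein gene beside Apoe that macrophages express, was at 10.9, 4.71, 21.0 and 14.6 FPKM with tacrolimus and 0.32, 11.6, 5.08 and 45.5 FPKM with vehicle. Vehicle replicate 1, the highest library for 8 of the 10 members, was the lowest for Apoc1. Apoc4, next to it, was at 4.10, 2.52, 12.6 and 7.47 FPKM with tacrolimus and 0.71, 3.84, 1.6 and 18.1 FPKM with vehicle, with the same library lowest. Apoc2, in the same cluster, was highest in vehicle replicate 1, at 6.69 FPKM, and at 0.53 to 2.27 FPKM with tacrolimus.

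Mertk, a receptor by which macrophages take up dying cells, was at 162, 114, 165 and 172 FPKM with tacrolimus and 160, 85.6, 193 and 73.8 FPKM with vehicle. Its level was above that of all 3 C1q genes in 5 of the 8 libraries, and its lowest value was in vehicle replicate 4, where most members were high. Maf, a transcription factor of macrophages and of T cells, was at 18.4, 28.0, 10.0 and 19.2 FPKM with tacrolimus and 4.00, 17.7, 23.3 and 29.9 FPKM with vehicle.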
